A study of Mus musculus with 6 samples.

Results

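Klhl30, Samd3 and Gng11 were higher in cultured CD8+ Teff (effector T cells) from Scd-1-/- mice than in those from WT mice, and they are described here as 3 of the 34745 genes in the deposited expression tables. They were picked by gene symbol because they were known to be raised in the knockout, so their difference between genotypes is given as a description, without a p-value. CD8+ T cells isolated from spleen were activated for 3 days in 5 μg/mL anti-CD3, 0.5 μg/mL anti-CD28 and 100 U/mL IL-2, and then cultured in IL-2 alone for the next 3 days until harvest (day 6). RNA-seq libraries were made from 3 WT and 3 Scd-1-/- samples. According to the methods of the study, the animals were male and 6 to 8 weeks old, the knockout animals were B6.129-Scd1tm1Ntam/J mice, which lack Scd1 in every cell and not in T cells alone, and the WT animals were C57BL/6J mice from a different source. Whether each library came from a separate mouse is not given in the sources used here, so the spread between libraries may be partly technical.

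Each of these genes belongs to a family with a known biochemical role. Klhl30 encodes a Kelch-like protein, and proteins of this family commonly act as adaptors that bring substrates to the cullin-3 (CUL3) ubiquitin ligase. Samd3 encodes a protein with a sterile alpha motif, a fold through which proteins bind one another, and its transcript is best known from natural killer (NK) cells and cytotoxic T cells. Gng11 encodes a gamma subunit of heterotrimeric G proteins. A gamma subunit pairs with a beta subunit and is held at the membrane by a lipid anchor, and the pair carries signals from chemokine and other receptors to enzymes such as phosphoinositide 3-kinase. Gng11 is known for its abundance in platelets.

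The 3 genes lie on 3 different chromosomes of GRCm38 (GENCODE M21), and none is on chromosome 19, where Scd1 lies. Klhl30 (ENSMUSG00000026308) spans 91351016 to 91362416 on the plus strand of chromosome 1 and has 1 annotated transcript of 8 exons and 3089 bases. Samd3 (ENSMUSG00000051354) spans 26229707 to 26272172 on the plus strand of chromosome 10 and has 6 annotated transcripts. Gng11 (ENSMUSG00000032766) spans 4003904 to 4008445 on the plus strand of chromosome 6, with 1 transcript of 2 exons and 919 bases. The deposited values imply a length of 3089 bases for Klhl30 and of 919 bases for Gng11, the same as these transcripts, and of 3554 bases for Samd3. No other annotated gene overlaps any of the 3, and no transcript of another gene matched theirs over at least 50 bases at 95% identity or more. The longest match was between Gng11 and its neighbour Gngt1, at 74.0% identity over 227 bases.

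A promoter window from RefSeq (GRCm38.p6), running from 250 bases before the transcription start to 50 bases after it, was matched by symbol for 1 of the 3 genes, Samd3. It is the only window that could be shown. The capitals mark the T-box letters AGGTGTGA, here on the opposite strand, from among several sets of letters searched. The T-box letters were picked because Eomes, the gene of a T-box transcription factor, had one of the profiles most like that of Samd3. That likeness comes from the contrast for which Samd3 was chosen, and an action of Eomes on Samd3 was not tested. The window is chr10:26229457-26229756, plus strand.
Samd3: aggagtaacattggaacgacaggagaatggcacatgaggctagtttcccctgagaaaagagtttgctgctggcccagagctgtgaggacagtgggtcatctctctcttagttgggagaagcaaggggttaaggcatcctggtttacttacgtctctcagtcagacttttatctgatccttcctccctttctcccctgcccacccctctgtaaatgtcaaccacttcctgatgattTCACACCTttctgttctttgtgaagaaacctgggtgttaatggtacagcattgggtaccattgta

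The T-box letters occurred once in the Samd3 window, from 26229692 to 26229699 on chromosome 10, starting 15 bases before the transcription start. The same letters, on either strand, were in 419 of all 32851 windows of the table (1.28%). The E-box letters CANNTG were found once too, without overlap with the T-box letters, and 72.3% of windows held them. Neither strand held the STAT letters TTCNNNGAA, which 8.30% of windows did, or the AP-1 letters TGANTCA, found in 7.81%. The same was true of the TCF/LEF letters CTTTGNA, found in 18.1% of windows, and of the RUNX letters TGTGGT, found in 16.8%. The ETS letters ACCGGAAG, in 2.30% of windows, and the TATA box letters TATAAA, in 13.6%, were not in the window. These are matches of letters within 300 bases, and binding was not measured.

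The libraries held 14034479 to 15866216 counts on genes. Replicate 1 of each genotype stood apart from replicates 2 and 3, which were closer to each other (chi-square per degree of freedom 51.3 to 62.1 against 12.2 and 14.8). A gene was tested on its counts, with edgeR's quasi-likelihood test, where its mean FPKM (fragments normalized for gene length and sequencing depth) was at least 1, which 9627 genes reached, the 3 genes among them. Klhl30, Samd3 and Gng11 were above 1 FPKM in each of the 6 libraries. The study's thresholds were a log2 fold change of 1 or more in either direction and an unadjusted p below 0.001. Scd1, the targeted gene, had 4272, 3074 and 3761 counts in WT replicates 1 to 3 and 30, 36 and 20 counts in the Scd-1-/- replicates, so it was low in every library labelled as knockout. The CD8 T cell markers were abundant in both groups, with a summed FPKM of 2124 to 2602 in WT and 2053 to 2362 in Scd-1-/- libraries over 8 genes. Of these, 0 passed in edgeR's quasi-likelihood test, DESeq2 or limma, beside 0.738% of all tested genes, and 2 had an unadjusted p under 0.05, beside 10.1% of all tested genes. These were Cd8a (log2 fold change -0.46, SE 0.139) and Cd5 (-0.44, SE 0.153), chosen for naming after their values were seen, with estimates below 0 in the knockout.

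Klhl30 was the most strongly raised of the 3 genes. Its FPKM was 1.75, 1.55 and 1.48 in WT replicates 1 to 3, from 82, 67 and 65 counts. In Scd-1-/- replicates 1 to 3 it was 7.73, 13.0 and 10.3, from 372, 568 and 505 counts. The lowest Scd-1-/- library was 4.41-fold above the highest WT library on the CPM scale (counts scaled to library size with TMM factors), so the groups were far apart. The means were 1.59 ± 0.141 (WT) and 10.4 ± 2.65 FPKM (Scd-1-/-) (mean ± SD, n = 3), and the fitted log2 fold change was 2.72 (standard error, SE, 0.245), or 6.58-fold.

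Gng11, with the shortest transcript of the 3 genes, had the lowest counts and a level per length close to that of Samd3 in WT. Its FPKM was 2.44, 1.78 and 1.68 in WT replicates 1 to 3, from 34, 23 and 22 counts, and 7.69, 8.95 and 9.33 in Scd-1-/- replicates 1 to 3, from 110, 116 and 136 counts. The Scd-1-/- libraries were all above the WT libraries, the closest pair being 3.15-fold apart on the CPM scale. With means of 1.97 ± 0.411 (WT) and 8.65 ± 0.858 FPKM (Scd-1-/-) (mean ± SD, n = 3), the fitted log2 fold change was 2.15 (SE 0.275), or 4.43-fold.

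Samd3 was raised least. Its FPKM was 1.78, 1.78 and 2.35 in WT replicates 1 to 3, from 96, 89 and 119 counts, and 5.31, 7.56 and 7.24 in Scd-1-/- replicates 1 to 3, from 294, 379 and 408 counts. Again the groups did not overlap, and the closest libraries were 2.36-fold apart on the CPM scale. The means were 1.97 ± 0.330 (WT) and 6.70 ± 1.21 FPKM (Scd-1-/-) (mean ± SD, n = 3), and the fitted log2 fold change was 1.79 (SE 0.223), or 3.45-fold.

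**Figure D1:**
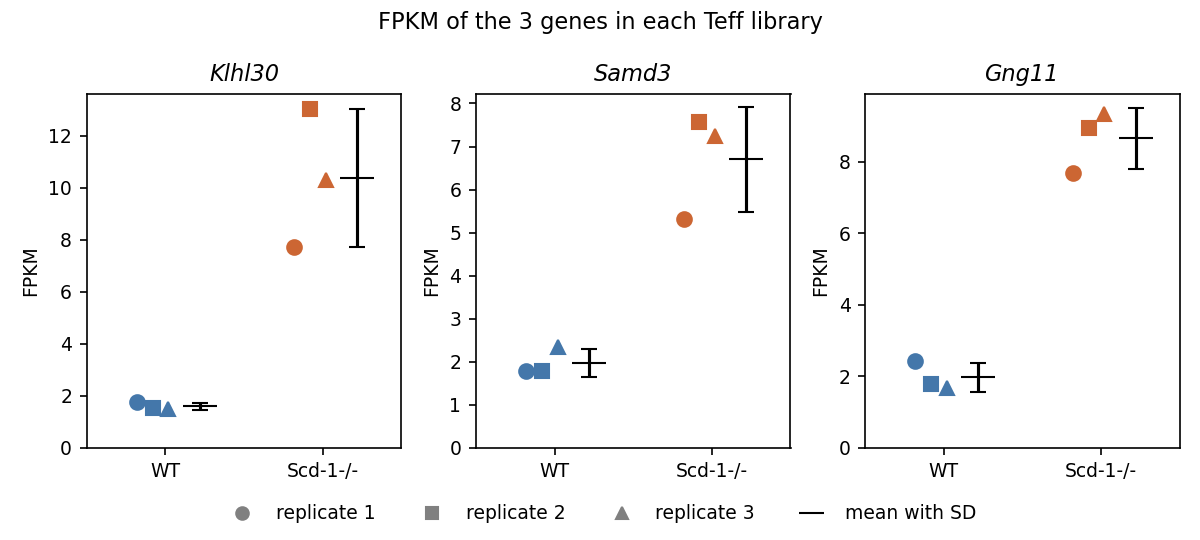
FPKM (y axis, starting at 0) of Klhl30, Samd3 and Gng11 in each WT and Scd-1-/- Teff library (points, shape by replicate number), with the mean and SD of 3 libraries beside them. WT values lie between 1.48 and 2.44 FPKM and Scd-1-/- values between 5.31 and 13.0 FPKM, with replicate 1 the lowest of the Scd-1-/- libraries for all 3 genes.

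By genes tested, 48 (0.499%) passed the thresholds of the study in the direction of higher in Scd-1-/- Teff. Klhl30, Gng11 and Samd3 were among these, at places 13, 20 and 28 by size of change, as their choice had fixed. A total of 738 tested genes (7.67%) had every Scd-1-/- library above every WT library. In WT Teff the mean FPKM of Klhl30 was above that of 9.84% of the tested genes, that of Gng11 above 14.8% and that of Samd3 above 14.9%. In Scd-1-/- Teff they were above 59.8%, 55.2% and 48.2%, in the middle of the range. These are bulk samples, in which more cells with a transcript and more transcript per cell cannot be told apart.

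The rise was seen within each replicate number and was smallest in replicate 1. Dividing the CPM of each Scd-1-/- library by that of the WT library with the same number gave 4.41, 8.48 and 7.28 for Klhl30 in replicates 1, 2 and 3. The same ratios were 3.15, 5.05 and 5.79 for Gng11, and 2.98, 4.26 and 3.21 for Samd3. Within the Scd-1-/- group, the CPM of replicate 1 was 0.668 times the mean of replicates 2 and 3 for Klhl30, 0.723 times for Samd3 and 0.846 times for Gng11. In WT, replicate 1 was above the mean of the others for Gng11 (1.45 times) and Klhl30 (1.20 times) and below it for Samd3 (0.891 times). With the replicate number as a block, the log2 fold changes were 2.69 for Klhl30, 2.15 for Gng11 and 1.78 for Samd3. In replicates 2 and 3 alone, a choice made after seeing the data, they were 2.98, 2.43 and 1.87.

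The 3 genes differed in how much their libraries scattered. The CPM of Gng11 had a coefficient of variation of 23.0% among WT and 9.79% among Scd-1-/- libraries, where counting error alone gives 19.5% and 9.10% at these counts. For Klhl30 the WT libraries varied by 11.1%, against 11.8% from counting, whereas the Scd-1-/- libraries varied by 24.9%, against 4.56%. Samd3 varied by 14.6% in WT and 17.7% in Scd-1-/- libraries, against 9.93% and 5.27% from counting. The scatter of Gng11 was thus close to counting error in both genotypes, and that of Klhl30 and Samd3 in Scd-1-/- Teff was several times above it. Each of these rests on 3 libraries, and counting error leaves out any error of library preparation.

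Among the G gamma subunits, the share held by Gng11 was larger in Scd-1-/- Teff, while its place in their order was nearly the same. Gng10, Gng2 and Gng5 had the highest levels per length, and 12 gamma genes were in the tables. Gng10 was at 37.6 ± 6.58 (WT) and 45 ± 10.1 FPKM (Scd-1-/-), Gng2 at 20.6 ± 4.28 and 33.9 ± 5.80 FPKM, and Gng5 at 16.5 ± 1.60 and 18.8 ± 1.18 FPKM (mean ± SD, n = 3). Gng11 held 2.72%, 2.19% and 1.86% of the summed gamma FPKM in WT replicates 1 to 3, and 7.16%, 8.0% and 7.27% in the Scd-1-/- replicates. By mean FPKM it was number 5 of 12 in WT, after Gngt2 at 7.58 ± 1.56 FPKM. In Scd-1-/- Teff it was number 4, but its 8.65 ± 0.858 FPKM did not differ from the 7.54 ± 0.937 FPKM of Gngt2 beyond their spread (mean ± SD, n = 3).

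**Figure D2:**
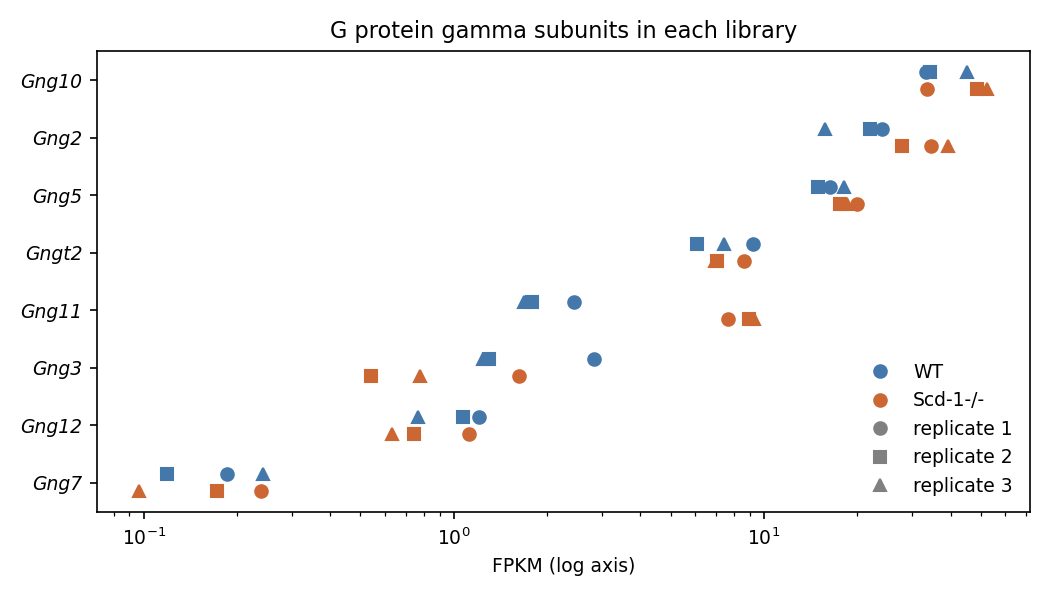
FPKM (x axis, log scale) of each G protein gamma subunit gene with a mean FPKM of at least 0.1, for the 3 WT and 3 Scd-1-/- libraries (colour by genotype, shape by replicate number). The points of Gng11 lie from 1.68 to 2.44 FPKM in WT and from 7.69 to 9.33 FPKM in Scd-1-/- libraries, a wider gap than that of Gng2 (up to 24.0 FPKM in WT and from 27.8 FPKM in Scd-1-/-).

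No other tested gamma subunit passed the thresholds, which 0.738% of all tested genes did, and 5 genes are too few to set against this share. Of the 5 other gamma genes tested, 4 had log2 fold changes above 0 and 1 below, with a median of 0.21. Gng2 had the lowest p (log2 fold change 0.74, SE 0.211, Benjamini-Hochberg adjusted p = 0.277 by edgeR quasi-likelihood), and its WT libraries (15.8 to 24.0 FPKM) lay below its Scd-1-/- libraries (27.8 to 39.3 FPKM). Gng3, which is best known from neurons, had a log2 fold change of -0.85 (SE 0.521). Gngt1, the gene next to Gng11, had no count in WT Teff and 0, 4 and 6 counts in Scd-1-/- replicates 1 to 3.

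The partners of gamma subunits were counted next: beta subunits, alpha subunits, effectors of the beta-gamma pair, RGS proteins (which end G protein signalling by speeding GTP hydrolysis on the alpha subunit) and the enzymes that attach and trim the lipid anchor. Together with the other gamma genes, 40 genes of these lists were tested, and 0 passed the thresholds in edgeR's quasi-likelihood test, against 0.738% of all tested genes in either direction. Unadjusted, 4 of the 40 (10.0%) had a p under 0.05, beside 10.1% of all tested genes. DESeq2 called 1 and limma called 0. With the replicate block 1 was called, and 5 had a Benjamini-Hochberg adjusted p under 0.05 by edgeR quasi-likelihood. Of all 9627 tested genes, 452 had such an adjusted p with the block. The median log2 fold change was 0.06, and that of all tested genes was 0.00 after rounding. The main beta subunits Gnb1 (53.4 ± 1.81 FPKM in WT, 55.6 ± 2.92 FPKM in Scd-1-/- Teff) and Gnb2 (48.3 ± 4.74 and 43.6 ± 11.8 FPKM), which could pair with a gamma subunit, had log2 fold changes of 0.08 and -0.12 (mean ± SD, n = 3).

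The gene that came closest was Pik3r6, which encodes a regulatory subunit that couples the gamma isoform of phosphoinositide 3-kinase to beta-gamma pairs. It had 0.965, 0.553 and 0.702 FPKM in WT replicates 1 to 3 and 1.70, 2.20 and 1.92 FPKM in Scd-1-/- replicates 1 to 3. The groups did not overlap. Its log2 fold change was 1.40 (SE 0.289, Benjamini-Hochberg adjusted p = 0.133 by edgeR quasi-likelihood). It passed in DESeq2 and with the replicate block (adjusted p = 0.0330 by edgeR quasi-likelihood). Of the 6 fits that left out 1 library it passed in 1, without WT replicate 1 (log2 fold change 1.66). Its catalytic partner Pik3cg had a log2 fold change of 0.29 (SE 0.195), and the alternative subunit Pik3r5 one of 0.03 (SE 0.191). Without Scd-1-/- replicate 1, the RGS gene Rgs11 (-1.62) and Icmt (-1.09), a carboxyl methyltransferase of prenylated proteins, passed as lower, and Pik3r6 was not called. In that fit 163 of all 9627 tested genes passed, 69 of them as lower.

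**Figure D3:**
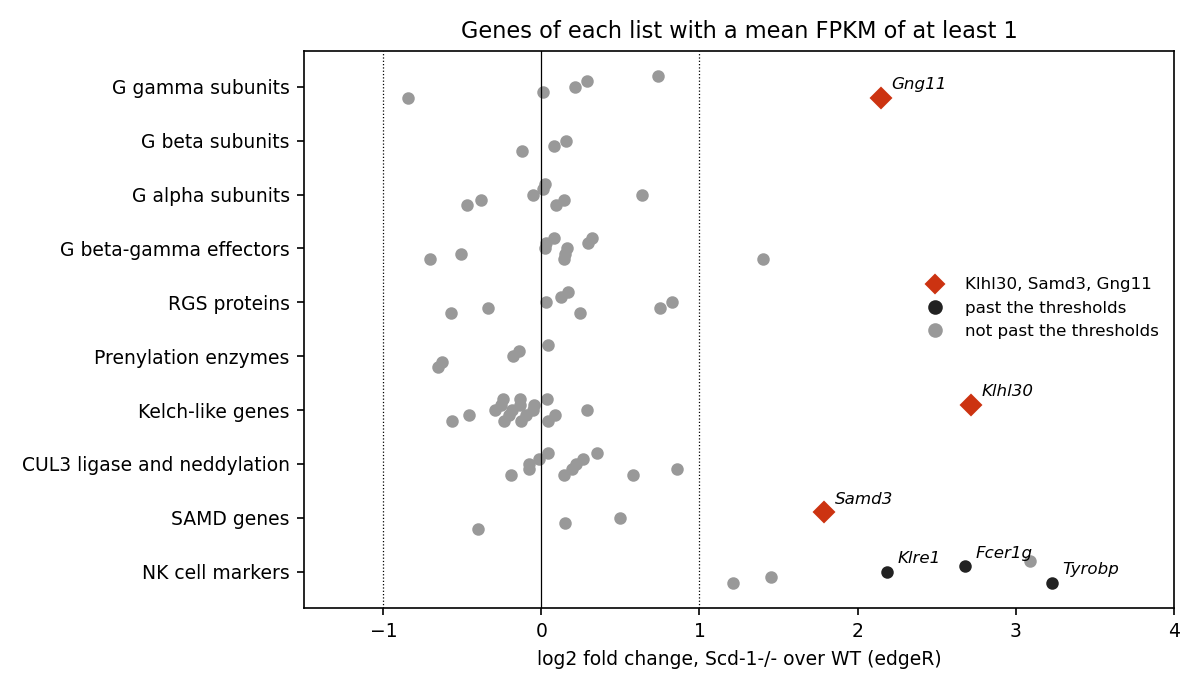
Log2 fold change of Scd-1-/- over WT Teff (x axis) for each tested gene of 10 lists (rows), with Klhl30, Samd3 and Gng11 as diamonds, genes past the thresholds in black and the others in grey, and dotted lines at -1 and 1. In the lists of G protein, Kelch-like, CUL3 and SAMD genes no other gene is past the thresholds, and the genes called in black belong to the list of NK cell markers.

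Klhl30 took a larger share of the Kelch-like FPKM in Scd-1-/- than in WT Teff. All 39 Kelch-like genes listed were in the tables, and by mean FPKM Klhl30 was number 16 in WT and number 3 in Scd-1-/- Teff. It made up 1.32% ± 0.0702 of the summed Kelch-like FPKM in WT and 8.52% ± 1.90 in Scd-1-/- libraries (mean ± SD, n = 3). The genes above it in Scd-1-/- Teff were Klhl6, a lymphocyte Kelch-like gene (27.2 ± 4.55 FPKM in WT, 28.5 ± 0.971 FPKM in Scd-1-/- Teff), and Keap1, the sensor that holds the antioxidant factor NRF2 in check (13.8 ± 3.79 and 11.9 ± 3.11 FPKM). In Scd-1-/- replicates 1 to 3 Keap1 was at 8.38, 14.2 and 13.1 FPKM, above Klhl30 in each library, though the ranges of both genes overlapped. Klhl21, a mitotic regulator and the third by mean over all libraries, was at 10.1 ± 2.62 and 8.17 ± 1.50 FPKM (mean ± SD, n = 3).

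Other Kelch-like genes and the CUL3 machinery did not pass the thresholds. Of the 38 other Kelch-like genes, 9 had no count in any library, 11 were under the FPKM minimum and 18 were tested. Among those 18, 4 had log2 fold changes above 0 and 14 below, with a median of -0.14. The CUL3 list holds CUL3, its RING partner, NEDD8 and the enzymes that attach it, and Cops5, Cops6 and Cand1, which act in removing NEDD8 or on cullins that lack it. Its 12 genes were all tested, with a median of 0.17. Over both lists, 0 of 30 genes passed in edgeR's quasi-likelihood test, and DESeq2 and limma called 0 as well, while 3 (10.0%) had an unadjusted p under 0.05. Among all tested genes these shares were 0.738% and 10.1%. Cul3 itself was at 7.33 ± 1.38 (WT) and 8.68 ± 0.238 FPKM (Scd-1-/-) (mean ± SD, n = 3), with a log2 fold change of 0.27 (SE 0.178). Klhl31, Klhl33, Klhl38 and Klhl40, some of them known from skeletal muscle as Klhl30 is, had no count in any library.

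No other SAMD gene tested passed the thresholds. Of 13 other SAMD genes listed, 12 were in the tables, 4 of these had no count and 5 were under the FPKM minimum, which left 3 to test. Samd1, a reader of unmethylated CpG islands, was the most abundant at 38.8 ± 9.83 (WT) and 28.8 ± 3.26 FPKM (Scd-1-/-) (mean ± SD, n = 3), with a log2 fold change of -0.40 (SE 0.204). Samd9l, an interferon-induced gene, was at 4.05 ± 0.125 and 5.61 ± 0.552 FPKM (log2 fold change 0.49, SE 0.154, Benjamini-Hochberg adjusted p = 0.330 by edgeR quasi-likelihood). Of the 3 genes, 0 passed in edgeR's quasi-likelihood test, DESeq2 or limma, and 1, Samd9l, had an unadjusted p under 0.05, beside 0.738% called and 10.1% under 0.05 among all tested genes. A list of 3 genes is too short to set against these shares. Samd3 was number 4 of 13 by mean FPKM in WT, with 4.02% ± 0.851 of the summed SAMD FPKM, and number 2 in Scd-1-/- Teff, with 14.3% ± 2.69 (mean ± SD, n = 3). In Scd-1-/- Teff it did not differ from Samd9l beyond their spread, and in replicate 1 Samd9l (5.99 FPKM) was above Samd3 (5.31 FPKM).

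None of the tested neighbours of the 3 genes passed the thresholds. Of the 12 nearest genes of the tables, with 2 on each side, 3 had no count, 5 were tested and 0 passed the thresholds in edgeR's quasi-likelihood test, DESeq2 or limma, with 2 at an unadjusted p under 0.05. Of all tested genes 0.738% passed and 10.1% had such a p. In the fit that took in every gene with a count, 0 of the 9 neighbours with a count passed and 5 had an unadjusted p under 0.05, Gngt1 and Tfpi2 with their few counts among them. Over all 17192 genes of that fit 0.861% passed and 8.57% had such a p. Erfe, the erythroferrone gene, starts 4014 bases after the end of Klhl30 and was at 0.956 ± 0.0905 (WT) and 1.54 ± 0.125 FPKM (Scd-1-/-) (mean ± SD, n = 3). Its log2 fold change of 0.71 (SE 0.238) came with a Benjamini-Hochberg adjusted p = 0.374 by edgeR quasi-likelihood. Espnl, 2710 bases before Klhl30, had at most 5 counts in any library. L3mbtl3, a chromatin reader that lies 2296 bases beyond the end of Samd3, had a log2 fold change of -0.17 (SE 0.359), and Tmem200a on the other side had at most 1 count. Beyond Gng11, Bet1, a vesicle trafficking gene 68454 bases away, had a log2 fold change of 0.69 (SE 0.286, Benjamini-Hochberg adjusted p = 0.473 by edgeR quasi-likelihood), and Tfpi2, 14985 bases before Gng11, had 0 counts in WT and 3, 0 and 9 counts in Scd-1-/- replicates 1 to 3.

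The genes with the most like profiles were sought by the root mean square difference of log2 CPM over the 6 libraries, after each gene was centred on its own mean, and a value of 0 would be an identical profile. This was done over all 9626 other tested genes and describes these libraries only, since genes with a large rise are bound to resemble one another. For Klhl30 the 5 nearest were Prf1 (0.30), Gng11 (0.34), Trdc (0.34), Trdv5 (0.35) and Anxa1 (0.38). Prf1 encodes perforin, Trdc and Trdv5 are the constant and a variable segment of the T cell receptor delta chain, and Anxa1 encodes annexin A1. For Samd3 they were Pdcd1 (0.14), which encodes the inhibitory receptor PD-1, Eomes (0.14), 2810025M15Rik (0.17), the transcriptional coactivator gene Yap1 (0.23) and Vash1 (0.24). For Gng11 they were Anxa1 (0.19), Trdv5 (0.21), Prf1 (0.21), Yap1 (0.23) and Pdcd1 (0.26).

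None of the 3 genes was the closest to another of them. Gng11 was the second nearest to Klhl30, but Klhl30 was number 19 for Gng11 and number 90 for Samd3. Samd3 was number 13 for Gng11 and number 16 for Klhl30, and Gng11 was number 15 for Samd3. The lists named 10 different genes, and 5 of them stood near more than 1 of the 3. These were Anxa1, Prf1 and Trdv5 near Klhl30 and Gng11, and Pdcd1 and Yap1 near Samd3 and Gng11. On log2(FPKM + 1), only Anxa1 stayed among the nearest 5 for both, at number 2 for Klhl30 and 5 for Gng11. Trdv5 was number 7 for Klhl30 and 2 for Gng11, and Prf1 number 4 and 26. Pdcd1 was number 38 for Samd3 and 7 for Gng11, and Yap1 number 39 and 71.

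The profile closest to Samd3 belonged to genes at quite different levels. Eomes was at 3.62, 4.18 and 4.07 FPKM in WT replicates 1 to 3 and at 9.34, 14.5 and 13.7 FPKM in Scd-1-/- replicates 1 to 3. Pdcd1 was at 32.4, 30.5 and 37.0 FPKM and at 91.4, 151 and 148 FPKM. In both, as in Samd3, Scd-1-/- replicate 1 was the lowest of its group and above every WT library. Prf1, the nearest to Klhl30, was at 44.9, 23.8 and 30.6 FPKM in WT and at 143, 173 and 172 FPKM in Scd-1-/- replicates 1 to 3. Trdc was at 2.61, 1.40 and 1.33 FPKM in WT and at 7.83, 13.6 and 17.1 FPKM in Scd-1-/- replicates.

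**Figure D4:**
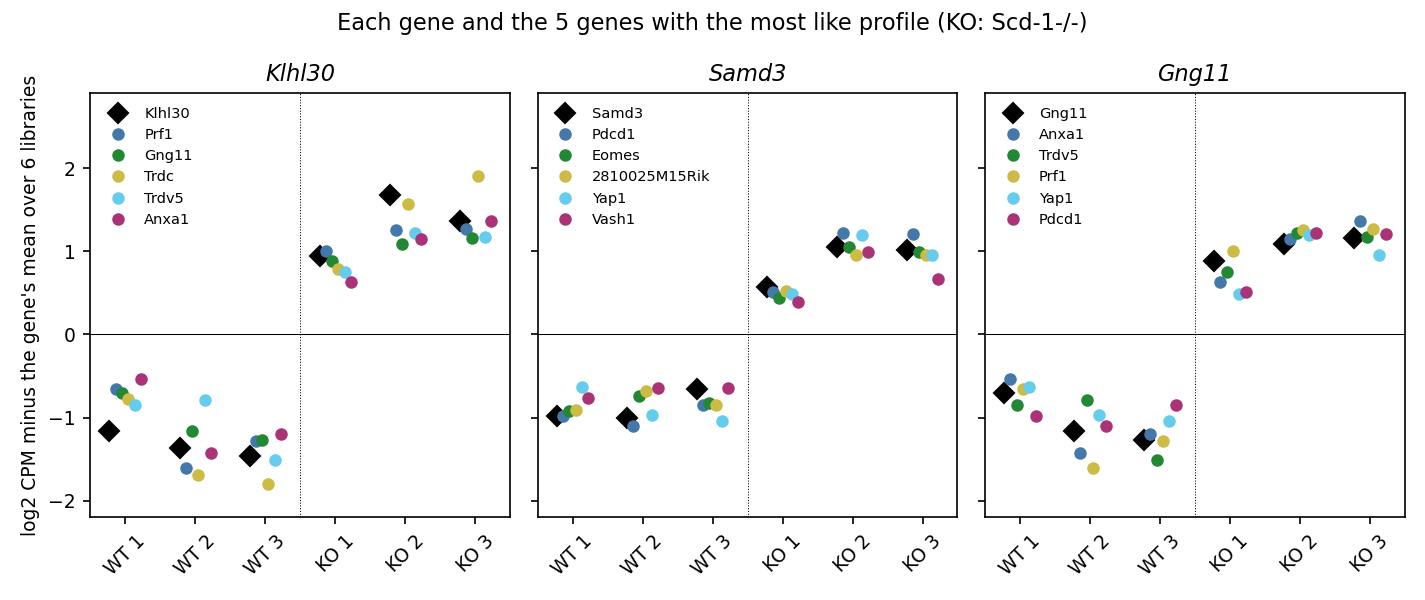
Log2 CPM of each gene minus its own mean over the 6 libraries (y axis) by library (x axis, KO meaning Scd-1-/-), for Klhl30, Samd3 and Gng11 (black diamonds) and the 5 genes nearest to each (coloured points). All of them lie below 0 in WT and above 0 in Scd-1-/- libraries, with root mean square differences from 0.14 (Pdcd1 and Eomes to Samd3) to 0.38 (Anxa1 to Klhl30).

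Since all 3 genes are also known from other cells, the markers of those cells were counted beside them. Of 12 NK cell markers, 6 were tested, and 3 of these (Tyrobp, Klre1 and Fcer1g) passed the thresholds as higher in Scd-1-/- Teff, against 0.499% of all tested genes. All 6 had a log2 fold change above 0, with a median of 2.43, and an unadjusted p under 0.05, beside 10.1% of all tested genes. Klrb1c, Klra9 and Fcgr3 had WT means of 0.748, 0.624 and 0.973 FPKM and reached the minimum through their Scd-1-/- libraries. The minimum thus favoured raised genes in this tally, and Ncr1, with a log2 fold change of -2.06 (SE 1.58), was under it. DESeq2 called 4, with Klrb1c in addition, and limma called 2, Tyrobp and Klre1. With the replicate block 5 passed, Klrb1c and Fcgr3 in addition, where 1.19% of all tested genes were called higher. Tyrobp, the DAP12 signalling adaptor, was at 1.99, 2.15 and 3.86 FPKM in WT and at 12.3, 30.0 and 31.5 FPKM in Scd-1-/- replicates 1 to 3 (log2 fold change 3.23, SE 0.455, Benjamini-Hochberg adjusted p = 0.0646 by edgeR quasi-likelihood). Tyrobp passed in 5 of the 6 fits that left out 1 library, Klre1 in 2 and Fcer1g in 1. The summed FPKM of the list was 11.0 to 18.1 in WT, 40.3 in Scd-1-/- replicate 1 and 111 and 122 in replicates 2 and 3. Ncr1, a defining NK receptor, had 0, 4 and 5 counts in WT and 0, 0 and 2 counts in Scd-1-/- replicates 1 to 3, and Klra4 and Klra8 had at most 2 counts in any library. Klra9 had 20, 10 and 13 counts in WT and 22, 23 and 59 in Scd-1-/- libraries (log2 fold change 1.21). Styk1, under the FPKM minimum, had 31, 2 and 12 counts in WT and 77, 53 and 73 in Scd-1-/- libraries (2.14). Cultured T cells can express many genes of this list, and its part in the level of Samd3 was not tested.

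Platelet, endothelial and muscle markers were near 0 for the most part. Of 14 platelet and megakaryocyte markers, 7 had no count in any library, among them Gp9, Gp6 and Gp1ba, and 1, Itgb3, was tested and did not pass (log2 fold change 0.53, SE 0.670). With replicates 2 and 3 only, Itgb3 passed as higher in Scd-1-/- Teff (1.06, Benjamini-Hochberg adjusted p = 0.00205 by edgeR quasi-likelihood). In that setting 369 of all 9627 tested genes passed. Pf4, the most typical platelet transcript, had 5 counts in Scd-1-/- replicate 3 and 0 in the other libraries. The summed FPKM of this list, mostly Itgb3, was 18.7, 4.73 and 4.16 in WT replicates 1 to 3 and 22, 9.35 and 8.41 in the Scd-1-/- replicates. It was higher in the knockout within each replicate number and highest in replicate 1 of each genotype. Of 12 skeletal muscle markers, 6 had no count, including Myh1, Myh2 and Myh4, and the sums were 5.07 to 8.13 FPKM in WT and 6.20 to 9.36 FPKM in Scd-1-/- libraries. Of 11 endothelial markers, 6 had no count, and the sums were 9.38 to 10.3 FPKM in WT and 6.03 to 7.36 FPKM in Scd-1-/- libraries. These 3 lists had 5 tested genes in all, 1 platelet, 2 endothelial and 2 muscle, of which 0 passed in edgeR's quasi-likelihood test, in DESeq2 or in limma. An unadjusted p under 0.05 was found for 2 of them and for 10.1% of all tested genes. Pecam1, an endothelial adhesion molecule, had a log2 fold change of -0.70 (SE 0.153). Ckm, the muscle creatine kinase, was at 0.978, 0.906 and 1.04 FPKM in WT and 1.91, 1.35 and 2.54 FPKM in Scd-1-/- replicates 1 to 3. Its groups did not overlap, its log2 fold change was 1.01 (SE 0.332), and its WT mean of 0.976 FPKM was under the minimum. The other tested muscle gene, Mylpf, had 0.28 (SE 0.334). Under the minimum, Tnnt3 (-1.40), Acta1 (-2.02) and Ryr1 (-0.20) had estimates below 0 and Actn3 (0.365) above. The part of these markers in the levels of Klhl30 and Gng11 was not tested.

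The study isolated the cells from spleen with a MojoSort CD8 T cell kit, and the share of other cells in the libraries was not measured here. Lists of B cell, CD4 T cell, myeloid and erythroid markers could hardly be tested. The B cell list had 1 tested gene, Cd79b (log2 fold change -1.02, SE 0.352), the CD4 T cell list 1, Zbtb7b (0.18), and the others 0. Cd79b, with an unadjusted p under 0.05, and Zbtb7b did not pass in edgeR's quasi-likelihood test, DESeq2 or limma. Without Scd-1-/- replicate 1, Cd79b passed as lower (-1.55, Benjamini-Hochberg adjusted p = 0.0179 by edgeR quasi-likelihood). In that fit 163 of all 9627 tested genes passed. Ms4a1 and Pax5, both defining B cell genes, had no count in any library. Among genes under the FPKM minimum, which took their values from fitting all 17192 genes that had a count (0.541% called higher), Cma1 and Cd14 passed as higher in Scd-1-/- Teff. Cd14 had 11, 5 and 4 counts in WT and 28, 42 and 40 counts in Scd-1-/- replicates 1 to 3, and Cma1, a mast cell protease gene of the NK list, had 0 counts in WT and 8, 11 and 25 in Scd-1-/- libraries.

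**Figure D5:**
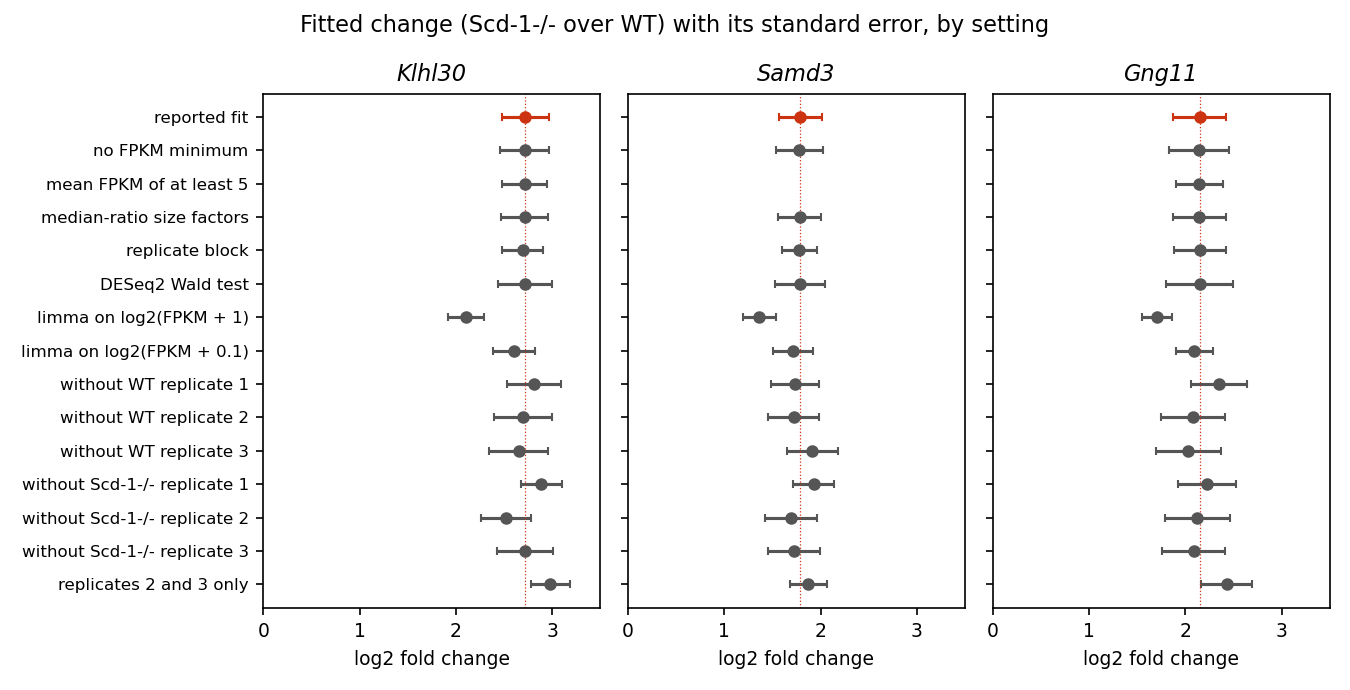
Fitted log2 fold change of Scd-1-/- over WT Teff (x axis) with its standard error (bars) for Klhl30, Samd3 and Gng11 under each setting (rows), the reported fit in red. Over the settings the values run from 2.11 to 2.98 for Klhl30, from 1.37 to 1.93 for Samd3 and from 1.71 to 2.43 for Gng11, the lowest in each case being limma on log2(FPKM + 1).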

How the data were processed

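The 6 RNA-seq libraries of CD8+ Teff, 3 WT and 3 Scd-1-/-, were grouped by their titles. The authors aligned reads with HISAT2 to GRCm38 and counted them with StringTie (1.3.0). The labels name poly(A) RNA and the paper's methods a stranded total RNA kit. The authors deposited raw counts per gene, without normalization, and FPKM per gene. Strand and multi-mapping settings are not given in the sources used here.

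Counts were fitted with edgeR (4.0.16), with TMM scaling and no replicate block, over genes whose FPKM averaged 1 or more. For genes below this, values come from fitting every gene that had a count. Alternatives used DESeq2 (1.42.0), limma (3.58.1), other scaling and filters, the replicate block, and each library left out. A standard error is the size of the log2 fold change divided by the square root of F. The script was tested on simulated data. For Itgam, which has 2 identifiers, the lower was used. Of 34745 identifiers, 34267 (98.6%) matched GENCODE M21. Transcripts were compared with blastn.

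Deviations from group means correlated at 0.595, 0.306 and 0.470 between same-numbered libraries over tested genes. The numbers were therefore taken to pair the libraries in the block fit, while the reported fit left this pairing out. Replicates 2 and 3 were not told apart by these correlations, since WT 3 with Scd-1-/- 2 gave 0.380 and WT 2 with Scd-1-/- 3 gave 0.180. What a number stands for is not given in the sources used here. No 2 libraries of a group agreed within sampling noise (chi-square per degree of freedom 14.8 and 12.2 between replicates 2 and 3 of WT and Scd-1-/-). The smallest p of an exact permutation test is 0.1 for 3 libraries against 3. The members and lists were chosen with earlier results of these data known. Genes named are the 3 members, Scd1, the 5 nearest profiles, 2 neighbours on each side, list genes past the thresholds, the 3 most abundant of each family and defining markers. Others, such as Gng3, Gngt2, Pik3r6, Gnb1, Gnb2, Pik3cg, Pik3r5, Rgs11, Icmt, Cul3, Styk1, Klra9, Mylpf and Tnnt3, were chosen after their values were seen.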

Additional observations from a re-analysis of the deposited data

How the results depend on the processing

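The log2 fold changes of Klhl30, Samd3 and Gng11 kept their sign under every setting tried. They moved by more than the spread between replicates with limma on log2(FPKM + 1), where the pseudocount shrinks low genes, to 2.11, 1.37 and 1.71, and for Gng11 with replicates 2 and 3 only, a setting chosen after seeing the data, to 2.43. Samd3 gave no value at a mean FPKM of at least 5, which it does not reach. Leaving out 1 library moved them between 2.52 and 2.89 for Klhl30, 1.69 and 1.93 for Samd3 and 2.03 and 2.35 for Gng11. With 1 library left out, the mean share of G gamma FPKM held by Gng11 stayed between 2.02% and 2.46% in WT. In Scd-1-/- Teff this mean stayed between 7.21% and 7.63%.

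Over all features, 71 genes were called, and 148 without an FPKM minimum, 43 at a minimum of 5, 184 with the replicate block, 161 with DESeq2 and 369 with replicates 2 and 3 only. Leaving out 1 library gave 25 (without WT replicate 2 or WT replicate 3) to 163 (without Scd-1-/- replicate 1). The G protein lists went from 0 calls to 1 (Pik3r6) without an FPKM minimum, with the replicate block and with DESeq2. They had 0 to 2 calls without 1 library. With replicates 2 and 3 only they had 4 calls in 40 tested genes, where 369 of all 9627 were called. The marker lists went from 3 calls to 6 without an FPKM minimum and 5 with the replicate block. Leaving out 1 library gave 0 calls (without WT replicate 2) to 5 (without Scd-1-/- replicate 1, where 163 of all 9627 were called). With replicates 2 and 3 only, 7 of 21 tested marker genes were called, beside the same 369 of 9627. In each of the last 2 settings 1 of the calls was lower, Cd79b, and the others were higher. For these changes the cause was not tested. The Kelch-like, CUL3 and SAMD lists had 0 calls under every setting. With the replicate block, 452 of 9627 tested genes had a Benjamini-Hochberg adjusted p under 0.05 by edgeR quasi-likelihood, and 11 without it. In the G protein lists it was 5 of 40 genes with the block and 0 without. In the marker lists it was 7 of 21 and 0, and in the Kelch-like and CUL3 lists 1 of 30 and 0. The SAMD list had 0 in both fits. Among named genes at a mean FPKM of at least 1, the replicate block changed no call other than those of Pik3r6, Klrb1c and Fcgr3, and it was not run on genes below that, such as Cma1 and Cd14. On log2(FPKM + 1), 4 of the 5 nearest profiles of Klhl30 and 2 of 5 of Samd3 and of Gng11 were shared. Depth limits genes with a few counts, such as Gngt1, Tfpi2 and Pf4.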
